A study of Mus musculus with 6 samples.

Results

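A set of 10 genes, chosen by symbol, comprised checkpoint and don't-eat-me genes of tumor-associated macrophages, namely *Cd274*, *Vsir*, *Havcr2*, *Lgals9*, *Sirpa*, *Cd47*, *Pirb*, *Lilrb4a*, *Cd276* and *Ido1*. All 10 were found among the 25701 rows of the count table, on 11 rows, and 8 of them were among the 13485 rows with enough counts to be tested. The measurements are bulk RNA-seq of CD11b+ cells selected with magnetic beads from tumors grown under the skin of MCT2 CO and MCT2 KO mice, with 3 samples in each group. Both groups were MCT2loxP/loxP; Cre+ mice on a C57BL/6 background that were injected with TC1 cells, a mouse lung epithelial tumor cell line. The MCT2 KO mice received tamoxifen at 8 weeks of age and the MCT2 CO mice received vehicle, and tumors were taken 24 days after the cells were injected. Effects of tamoxifen, of active Cre and of the deletion therefore cannot be told apart. The paper also reports larger tumors in MCT2 KO at harvest, and effects of tumor size cannot be told apart from these either. The methods call the Cre line mCre-Tg without naming its promoter, and the floxed alleles are those of the host. Lung is the tissue given in the sample records, but the methods describe tumors in the flank.

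Immune checkpoints are surface proteins and enzymes that restrain immune cells. PD-L1, the product of *Cd274*, binds PD-1 on T cells, and B7-H3 (*Cd276*) and VISTA (*Vsir*) are further members of the B7 family. TIM-3 (*Havcr2*) is an inhibitory receptor of T cells and myeloid cells, and galectin-9 (*Lgals9*) is one of its ligands. SIRPα (*Sirpa*) is a receptor on macrophages that restrains engulfment when it binds CD47 (*Cd47*) on the surface of another cell, which is called a don't-eat-me signal. PIR-B (*Pirb*) and LILRB4 (*Lilrb4a*) are receptors of myeloid cells with inhibitory motifs that recruit phosphatases, and IDO1 (*Ido1*) breaks down tryptophan. Interferon-gamma is a known inducer of *Cd274* and *Ido1*.

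The total counts per sample ranged from 24863611 to 31713704. *Slc16a7*, which encodes MCT2 and is the gene targeted in MCT2 KO, had 16.04, 11.04 and 11.21 CPM (counts scaled to library size by TMM) in MCT2 CO replicates 1 to 3 and 8.22, 4.97 and 5.34 CPM in MCT2 KO replicates 1 to 3. The groups did not overlap (two-sided exact permutation test, p = 0.1, and 3 against 3 can give none smaller), and edgeR's quasi-likelihood test gave a log2 fold change of -1.05 (SE 0.24) at an adjusted p of 0.370. Macrophage markers were abundant, with the sum of 10 tested markers at 5409 to 7296 CPM in MCT2 CO and 6551 to 10310 CPM in MCT2 KO. *Itgam*, which encodes CD11b, had 1 count over the 6 samples and could not serve as a check. MCT2 KO replicate 2 had the lowest sum of 10 T cell markers, at 16.0 CPM against 46.2 to 95.2 CPM in the other samples.

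Not every member could be measured by this table. All 2714 listed genes whose span lay wholly inside the span of another listed gene had 0 counts, against 19.5% of the other 22987 listed genes. *Vsir* (ENSMUSG00000020101, plus strand, chr10:60346851-60372684 of GRCm38) had 0 counts in all 6 samples, and its 5014 exon bases lie wholly inside the span of *Cdh23*, a gene of the minus strand that had 226 to 344 counts per sample. These zeros therefore carry no information about the expression of VISTA in either group.

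*Lilrb4a* stood on a pair of rows. The row that GENCODE M21 also names *Lilrb4a* (ENSMUSG00000112148, plus strand, chr10:51490956-51496611) had 0 counts in all samples and lies inside the other row. That other row (ENSMUSG00000062593, chr10:51480612-51496613), which GENCODE M21 names *Gm49339*, had 145, 111 and 141 counts in MCT2 CO and 106, 96 and 62 counts in MCT2 KO. Of its 1990 exon bases, 22 lie outside *Lilrb4b* and *Lilrb4a*, and 4274 bases of its span do. The part of this row that no other listed span covers is thus mainly the stretch between both genes, and its counts are given below as those of the row, not as the level of LILRB4. *Lilrb4b*, its neighbour and near copy, also had 0 counts. GENCODE M21 also places an antisense gene, *Gm40645* (minus strand, chr10:51489530-51522447), across part of the stretch between both genes. It is not a row of the table used here, so its reads may be among the counts of the row labelled *Lilrb4a*.

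**Figure D1:**
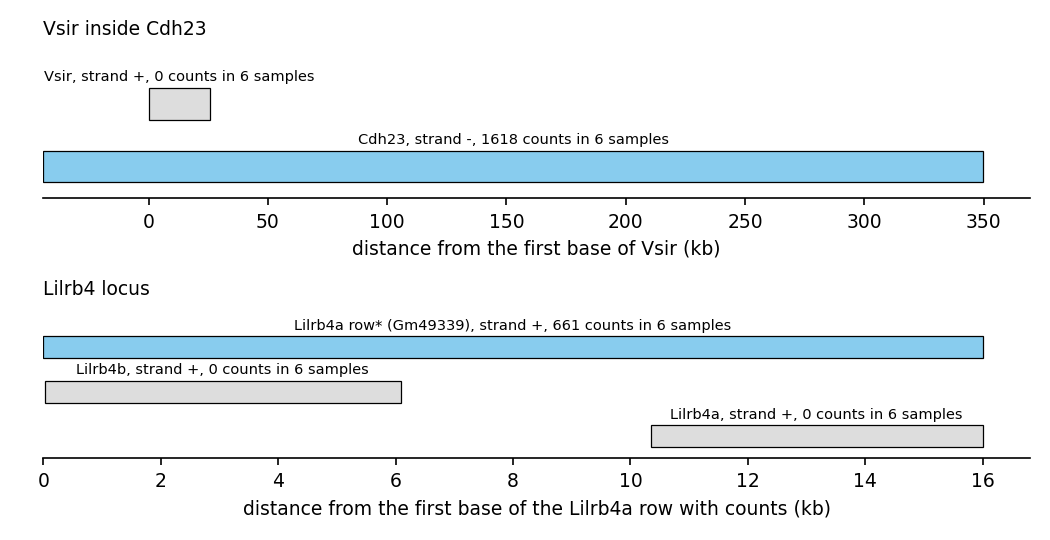
Spans of *Vsir* with *Cdh23* (upper panel) and of the *Lilrb4* genes (lower panel) in GENCODE M21, drawn as distance in kb. The asterisk marks the row labelled *Lilrb4a* that had counts. Blue bars are genes with counts and grey bars are genes with 0 counts in all samples, and each grey bar lies inside the blue bar of its panel.

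*Ido1* (ENSMUSG00000031551, minus strand, chr8:24584136-24597009) overlaps no other listed span. It had 1, 4 and 1 counts in MCT2 CO and 3, 0 and 8 counts in MCT2 KO, and did not pass the filter on low counts. In CPM this was 0.0334, 0.154 and 0.0376 in MCT2 CO and 0.126, 0 and 0.321 in MCT2 KO. The 0 in MCT2 KO replicate 2 allows up to 3 counts, or 0.0921 CPM, with counting error only. A difference in *Ido1* between the groups was not detectable at this depth.

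The stretch upstream of the start site is shown for the member with the highest log2 fold change, *Cd274*, and for *Lgals9*, the only one of the members with a promoter entry whose window held the searched motif. The sequences are RefSeq's on GRCm38.p6, 5′ to 3′ on the strand of the gene, and end before the first annotated base of the gene. A motif was searched in the 250 bases before each start on both strands. This motif, a core of elements bound by interferon regulatory factors, was GAAA followed by any 2 bases and GAAA again, and a match is printed in capitals. For *Cd274* (chr19:29367188-29367437, plus strand) and *Lgals9* (chr11:78984947-78985174, minus strand) they read:
Cd274: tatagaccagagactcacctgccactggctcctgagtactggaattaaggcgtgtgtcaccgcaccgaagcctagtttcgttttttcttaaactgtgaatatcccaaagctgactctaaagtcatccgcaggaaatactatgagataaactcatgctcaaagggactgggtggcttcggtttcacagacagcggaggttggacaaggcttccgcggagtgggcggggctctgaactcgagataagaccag
Lgals9: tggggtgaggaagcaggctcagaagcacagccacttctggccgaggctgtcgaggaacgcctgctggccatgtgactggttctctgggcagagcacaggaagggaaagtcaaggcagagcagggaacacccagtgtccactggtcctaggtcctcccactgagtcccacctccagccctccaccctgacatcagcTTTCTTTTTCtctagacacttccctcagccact

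The match in *Lgals9* lies on the opposite strand and starts 55 bases before the RefSeq start. Of 32851 mouse promoters, 2.98% held this motif, and it was found in 1 of 8 promoter entries for the members (7 genes, *Cd47* having a pair of start sites). *Sirpa*, *Lilrb4a* and *Ido1* had no entry. The absence of the motif from a window of this length says nothing about these factors.

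Genes were called where the adjusted p did not exceed 0.05 and the log2 fold change reached 0.58 in either direction. In edgeR's quasi-likelihood test 0 of the 8 tested members were called, and 0% of all 13485 genes. At an unadjusted p under 0.05 there was 1 member, *Cd274*, against 9.37% of all genes tested. The log2 fold change, MCT2 KO against MCT2 CO, was above 0 in 7 of 8 members and in 50.1% of all genes, although *Cd47*, at 0.012, turned to -0.011 with scaling by total counts. The groups did not overlap in 0 of 8 members and in 15.8% of all genes. DESeq2, run on every gene with 1 count or more, called 83 genes (0.448%), of which 0 were members. The 95% interval lay within the threshold of 0.58 in both directions for 2 members, *Cd47* and *Lgals9*, so for the other 6 a difference of that size is not excluded by these samples.

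**Figure D2:**
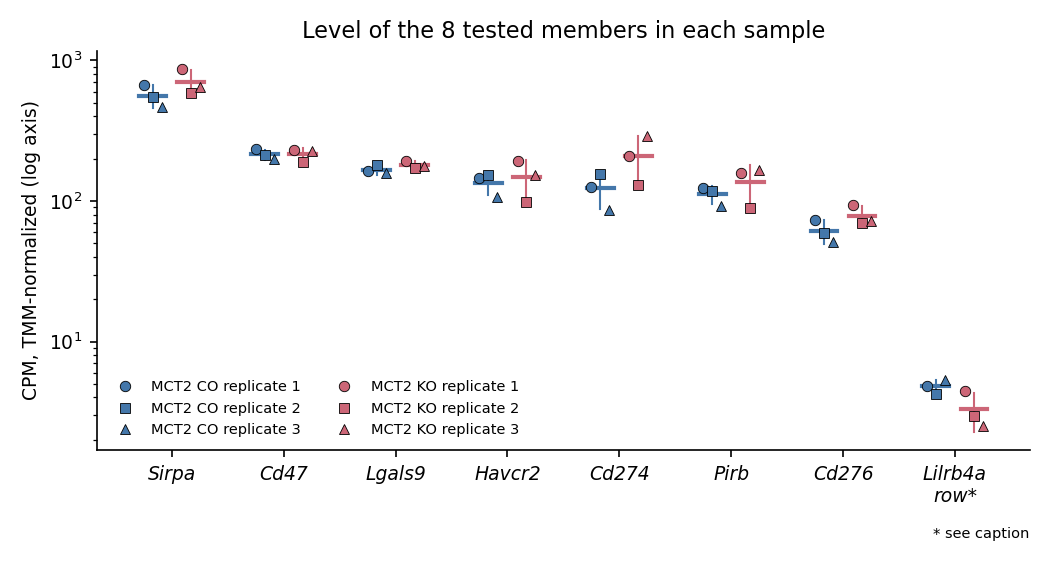
TMM-normalized CPM (log axis) of the 8 tested members in each sample, with blue for MCT2 CO and red for MCT2 KO and a marker shape for each replicate. Bars are group means and vertical lines are SD (n = 3). The asterisk marks the row labelled *Lilrb4a* that lies mostly outside that gene. The groups overlap in every member, and *Cd274* reaches 289 CPM in MCT2 KO replicate 3.

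Among the ligands of the B7 family, *Cd274* (ENSMUSG00000016496, plus strand, chr19:29367455-29388095) had 127, 156 and 86.9 CPM in MCT2 CO and 208, 130 and 289 CPM in MCT2 KO. MCT2 KO replicates 1 and 3 lay above all MCT2 CO samples, whereas MCT2 KO replicate 2 lay below MCT2 CO replicate 2. The means were 123 ± 34.7 CPM in MCT2 CO and 209 ± 79.8 CPM in MCT2 KO (SD, n = 3). The log2 fold change was 0.76 (SE 0.30, 95% interval 0.07 to 1.45), and the adjusted p was 0.506 in edgeR and 0.208 in DESeq2 on all genes. An exact permutation test, two-sided, gave p = 0.2. Without MCT2 KO replicate 3 the log2 fold change was 0.46, and without MCT2 CO replicate 3, the lowest sample, it was 0.56, and in both cases no member stayed at an unadjusted p under 0.05. GENCODE M21 places an antisense gene, *AC119228.1* (minus strand, chr19:29373417-29384471), within *Cd274*. It is not a row of the table used here, and 10.4% of the 50-base stretches of *Cd274* transcripts also occur in it when both strands are read. The libraries were stranded but the strand setting of the counting is not given in the sources used here. *Vsir* had 0 counts inside *Cdh23*, a gene of the opposite strand, so strand appears not to have been used. Reads of *Cd274* and *AC119228.1* are then not separated.

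*Cd276* (ENSMUSG00000035914, minus strand, chr9:58524298-58555437) had 73.6, 59.2 and 50.9 CPM in MCT2 CO and 93.6, 69.6 and 72.3 CPM in MCT2 KO. MCT2 CO replicate 1 exceeded both lower MCT2 KO samples, so the groups overlapped. The log2 fold change was 0.36 (SE 0.16, 95% interval -0.02 to 0.73), and the adjusted p was 0.547 by edgeR's quasi-likelihood test. *Gm10657*, a gene of the opposite strand, covers 11.4% of its exon bases.

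For the TIM-3 receptor and its ligand, the samples of both groups were intermixed. *Havcr2* (ENSMUSG00000020399, plus strand, chr11:46454935-46481255) had 147, 152 and 106 CPM in MCT2 CO and 193, 98.9 and 153 CPM in MCT2 KO. The MCT2 KO samples included both the highest and the lowest of the 6 values. Its log2 fold change of 0.14 (SE 0.24, 95% interval -0.41 to 0.68, adjusted p = 0.882 in edgeR) turned to -0.093 without MCT2 KO replicate 1 and to -0.011 without MCT2 CO replicate 3.

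*Lgals9* (ENSMUSG00000001123, minus strand, chr11:78962974-78984946) had 162, 181 and 157 CPM in MCT2 CO and 193, 173 and 177 CPM in MCT2 KO. Its 6 values were close together, with 1 MCT2 CO sample above both lower MCT2 KO samples. Galectin-9 mRNA thus had a log2 fold change of 0.12 (SE 0.09, 95% interval -0.09 to 0.32, adjusted p = 0.719 in edgeR).

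SIRPα mRNA had the highest level of the members in the order by length given below. *Sirpa* (ENSMUSG00000037902, plus strand, chr2:129592835-129632228) had 673, 545 and 464 CPM in MCT2 CO and 871, 586 and 646 CPM in MCT2 KO. MCT2 KO replicate 1 was the highest sample, and the remaining MCT2 KO samples lay below MCT2 CO replicate 1. *Sirpa* thus had a log2 fold change of 0.32 (SE 0.18, 95% interval -0.10 to 0.75, adjusted p = 0.622 in edgeR). Its ligand *Cd47* (ENSMUSG00000055447, plus strand, chr16:49800533-49915010) had 234, 211 and 199 CPM in MCT2 CO and 232, 190 and 228 CPM in MCT2 KO. Both groups covered nearly the same range. The log2 fold change of *Cd47* was 0.01 (SE 0.11, 95% interval -0.24 to 0.26, adjusted p = 0.980 in edgeR).

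Of the inhibitory receptors that recruit phosphatases, *Pirb* (ENSMUSG00000058818, minus strand, chr7:3711409-3720391) had 123, 118 and 92.5 CPM in MCT2 CO and 158, 88.7 and 165 CPM in MCT2 KO. MCT2 KO replicate 2 was the lowest of the 6 samples, while both other MCT2 KO samples were the highest. The log2 fold change was 0.30 (SE 0.23, 95% interval -0.22 to 0.82, adjusted p = 0.706 in edgeR). *Pirb* shares 34.0% of its 50-base stretches with other genes, most of all *Gm14548* at 17.7%, so its counts are uncertain to that extent.

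The row labelled *Lilrb4a* had 4.84, 4.27 and 5.31 CPM in MCT2 CO and 4.44, 2.95 and 2.49 CPM in MCT2 KO. It was the only one of the tested rows with a log2 fold change below 0, at -0.55 (SE 0.24, 95% interval -1.10 to 0.0058, adjusted p = 0.539 in edgeR). MCT2 KO replicate 1 lay above MCT2 CO replicate 2 by a narrow margin, and under scaling by total counts the groups no longer overlapped.

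**Figure D3:**
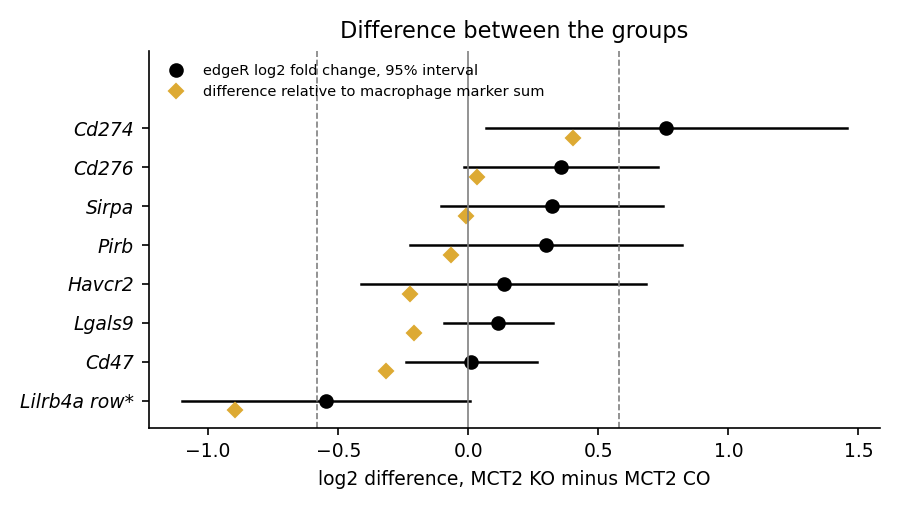
Differences between MCT2 KO and MCT2 CO on the log2 scale for the 8 tested members. Black points with lines are edgeR log2 fold changes with 95% intervals, dashed lines mark the threshold of 0.58, and yellow diamonds are differences of the members taken relative to the summed macrophage markers. The interval of *Cd274*, 0.07 to 1.45, is the only one above 0, and the diamond of *Sirpa* stands at -0.0088.

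The members shared an order of samples. MCT2 CO replicate 3 was the lowest MCT2 CO sample and MCT2 KO replicate 2 the lowest MCT2 KO sample in 7 of 8 members (87.5%), the exception being the row labelled *Lilrb4a*. Both held together in 20.3% of all genes tested and in 6 of 10 macrophage markers. MCT2 KO replicate 1 was the highest of the 6 samples in 4 of 8 members, in 8 of 10 macrophage markers and in 20.4% of all genes. The summed macrophage markers were 7296, 6269 and 5409 CPM in MCT2 CO and 10310, 6551 and 7219 CPM in MCT2 KO (exact permutation test, two-sided, p = 0.3). All 10 of these markers had a log2 fold change above 0, with a median of 0.28. In bulk samples, fewer cells of a type and less RNA per cell cannot be told apart.

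Taken relative to the summed macrophage markers, in a comparison chosen after the data were seen, *Sirpa* differed by -0.0088, *Cd276* by 0.035 and *Pirb* by -0.067 on the log2 scale. *Cd274* still differed by 0.40, with groups that overlapped (exact permutation test, two-sided, p = 0.5). *Havcr2* and *Lgals9*, whose fold changes were above 0, turned to -0.22 and -0.21. *Cd47* differed by -0.32 and the row labelled *Lilrb4a* by -0.90, and in these 2 the groups did not overlap (two-sided exact permutation test, p = 0.1 for each). Under the same ratio, 17.6% of all genes tested had groups that did not overlap. The marker sum leans on *Lyz2*, at 1297, 992 and 886 CPM in MCT2 CO and 1972, 1873 and 1214 CPM in MCT2 KO. *Lyz2* had the highest log2 fold change of the 10 markers, 0.67, and was the only 1 at an unadjusted p under 0.05 in edgeR. The ratio was not taken without *Lyz2*, so the differences given here, including the separation of *Cd47*, hold for this sum only. The part of macrophage content in the members' values was not tested beyond this ratio.

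**Figure D4:**
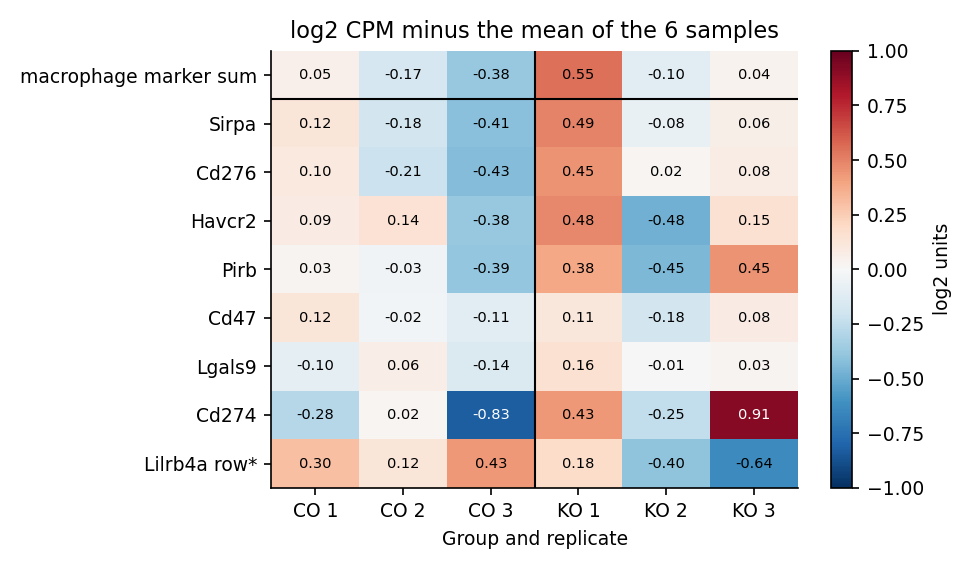
log2 CPM of each tested member and of the summed macrophage markers minus its mean over the 6 samples. Columns are samples, and color and printed numbers give the difference in log2 units. *Sirpa* and *Cd276* follow the macrophage sum from sample to sample, with MCT2 KO replicate 1 highest, whereas *Cd274* is highest in MCT2 KO replicate 3 at 0.91, and the asterisk marks the row labelled *Lilrb4a* that lies mostly outside that gene.

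Markers of other cells also differed between samples. The sum of 8 fibroblast markers was 2070 to 3424 CPM in MCT2 CO and 1728 to 1842 CPM in MCT2 KO, without overlap (exact permutation test, two-sided, p = 0.1). *Col3a1* was the largest part of this sum, at 1187 to 2028 CPM in MCT2 CO and 804.5 to 1017 CPM in MCT2 KO. All 8 fibroblast markers had a log2 fold change below 0, but the groups did not overlap in only 3 of them. The sum was not taken without *Col3a1*. Of 7 epithelial tumor markers, 2 were tested, *Cdh1* and *Epcam*. Their sum was 13.7 to 20.8 CPM in MCT2 CO and 18.4 to 33.2 CPM in MCT2 KO (exact permutation test, two-sided, p = 0.3). *Krt8*, *Krt18* and *Krt19*, which were not tested, had at most 4 counts in any sample. The paper states that telling TC1 cells from host mesenchymal cells with certainty would need lineage tracing or copy-number data. The epithelial and fibroblast lists therefore do not separate tumor cells from host fibroblasts. Of 10 neutrophil markers, 8 were tested, with sums of 83.0 to 103 CPM in MCT2 CO and 68.6 to 183 CPM in MCT2 KO, and *Ly6g* had 8 counts over the 6 samples. Most of that sum was *Csf3r*, at 70.9 to 94.3 CPM in MCT2 CO and 41.1 to 120 CPM in MCT2 KO. Of the 8 neutrophil markers, 6 were higher in MCT2 KO without overlap and at an unadjusted p under 0.05, with a list median of 1.70 on the log2 scale, and 0 were called. *S100a9* for instance had 3.50, 2.58 and 4.18 CPM in MCT2 CO and 20.9, 9.12 and 7.63 CPM in MCT2 KO. Among all genes tested, 50.1% had a log2 fold change above 0. In either direction, 15.8% had groups that did not overlap and 9.37% had an unadjusted p under 0.05 in edgeR. Of 15 genes known to respond to tissue dissociation, such as heat shock genes, 13 had a log2 fold change below 0, 6 of them without overlap. Their sum was 14480 to 16960 CPM in MCT2 CO and 12170 to 15060 CPM in MCT2 KO. The part of these markers in the members' values was not tested.

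To set the members' levels against each other, CPM were divided by length, and the order below depends on the length chosen. The sources used here do not say whether reads in introns were counted. Row lengths equal whole gene spans, however, and *Vsir* had 0 counts although no exon of *Cdh23* lies under its span. Reads in introns therefore appear to have been counted. Per kb of exon free of other spans, the MCT2 CO means were 114 CPM for *Sirpa*, 78.2 for *Lgals9*, 49.6 for *Havcr2*, 34.2 for *Cd47*, 34.0 for *Cd274*, 24.9 for *Pirb* and 18.9 for *Cd276*. In MCT2 CO the samples of *Sirpa*, *Lgals9* and *Havcr2* each lay wholly above those of the next gene in this order, but from *Cd47* downward each neighbouring pair overlapped. In MCT2 KO the order was *Sirpa* at 143 CPM per kb, *Lgals9* at 84.7, *Cd274* at 57.7, *Havcr2* at 54.5, *Cd47* at 34.5, *Pirb* at 30.7 and *Cd276* at 24.2. By this measure *Cd274* stood above *Havcr2* and *Cd47* in MCT2 KO and below both in MCT2 CO, but in MCT2 KO every neighbouring pair from *Cd274* downward overlapped. Per kb of gene span in place of exon, a choice made after the data were seen, the MCT2 CO order was *Sirpa* at 14.2 CPM, *Pirb* at 12.4, *Lgals9* at 7.60, *Cd274* at 5.97, *Havcr2* at 5.13, *Cd276* at 2.01 and *Cd47* at 1.87. *Sirpa* stayed highest by both lengths, whereas *Pirb* and *Cd47* moved most. *Vsir*, *Lilrb4a* and *Ido1* have no place in these orders.

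Likeness between patterns was measured as the root-mean-square distance of mean-centred log2 CPM over the 6 samples. Of all member pairs, *Sirpa* and *Cd276* were closest, at a distance of 0.0471. Among all genes tested, *Cysltr2* (0.0874) and *Il18bp* (0.13) were nearest to *Cd274*. *Renbp* (0.0324) and *Lcp1* (0.0414) were nearest to *Sirpa*, and *Htatip2* (0.0312) and *Ms4a6d* (0.0439) to *Cd276*. For *Havcr2* they were *Naip6* (0.0559) and *Map3k1* (0.0611), and for *Pirb* they were *Zfp773* (0.0372) and *Gngt2* (0.0442). The members with the flattest profiles had the closest neighbours, namely *Lsm14a* (0.0176) and *Cep43* (0.019) for *Cd47* and *Epb41* (0.0249) and *Man2c1* (0.0329) for *Lgals9*. *Bbln* (0.0828) and *Cyp2t4* (0.102) were nearest to the row labelled *Lilrb4a*.

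Related genes were counted in 5 lists, and 0 genes of any list were called. Among all genes tested, 0% were called, 50.1% had a log2 fold change above 0 and 9.37% had an unadjusted p under 0.05. Of 22 binding partners and regulators of the members, 19 were tested, 12 of them had a log2 fold change above 0, the median was 0.02, and 0 had an unadjusted p under 0.05. *Pdcd1*, the PD-1 receptor for PD-L1, had 3.17, 4.62 and 1.84 CPM in MCT2 CO and 4.11, 1.44 and 8.64 CPM in MCT2 KO. Its highest sample was MCT2 KO replicate 3, as for *Cd274*, and its lowest was MCT2 KO replicate 2, unlike *Cd274*. *Cd80*, which binds PD-L1 on the same cell, had 207 ± 32.3 CPM in MCT2 CO and 209 ± 16.9 CPM in MCT2 KO (SD, n = 3). *Cmtm6*, which stabilises PD-L1 at the surface, had 105 ± 10.7 CPM in MCT2 CO and 109 ± 23.0 CPM in MCT2 KO. *Ptpn6*, the phosphatase SHP-1 downstream of SIRPα and PIR-B, had 197 ± 30.7 CPM in MCT2 CO and 246 ± 59.4 CPM in MCT2 KO, a log2 fold change of 0.32 (SE 0.19). Neither PD-L1's receptor nor these partners stood apart between the groups.

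Of 23 other checkpoint genes, 19 were tested and 12 were above 0, against 50.1% of all genes tested (median of the list 0.15). An unadjusted p under 0.05 was found in 3, against 9.37% of all genes tested, and all 3 were higher in MCT2 KO. *Cd200r1*, an inhibitory receptor of myeloid cells, had 5.57, 3.77 and 3.61 CPM in MCT2 CO and 9.01, 5.92 and 9.28 CPM in MCT2 KO. *Lag3*, an inhibitory receptor of lymphocytes, had 17.5, 17.4 and 10.9 CPM in MCT2 CO and 29.1, 18.8 and 30.1 CPM in MCT2 KO. Neither gene's groups overlapped, with log2 fold changes of 0.90 (SE 0.24, adjusted p = 0.410 in edgeR) for *Cd200r1* and 0.76 (SE 0.23, adjusted p = 0.430 in edgeR) for *Lag3*. *Tnfrsf14*, the receptor HVEM, had a log2 fold change of 0.56 (SE 0.21, adjusted p = 0.491 in edgeR) with overlapping groups. *Pdcd1lg2*, the second ligand of PD-1, had 2.40 ± 0.64 CPM in MCT2 CO and 2.91 ± 1.40 CPM in MCT2 KO (SD, n = 3).

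Of 27 other inhibitory or paired receptors and engulfment signals, 25 were tested and 21 were above 0, against 50.1% of all genes tested (median 0.16). An unadjusted p under 0.05 was found in 3, against 9.37% of all genes tested. *Sirpb1c*, an activating relative of *Sirpa*, had 53.6, 49.2 and 34.7 CPM in MCT2 CO and 76.7, 62.3 and 72.0 CPM in MCT2 KO, with a log2 fold change of 0.62 (SE 0.16, adjusted p = 0.396 in edgeR). It shares 51.9% of its 50-base stretches with its relatives, so its counts are uncertain, whereas *Sirpa* shares 0%. The remaining pair were sialic acid receptors at low levels. *Siglecf* had a mean of 0.313 CPM in MCT2 CO and 0.645 CPM in MCT2 KO, a log2 fold change of 1.03 (SE 0.32, adjusted p = 0.430 in edgeR). *Siglecg*, which B cells also express, had 1.39 CPM in MCT2 CO and 0.674 CPM in MCT2 KO, a log2 fold change of -1.05 (SE 0.41, adjusted p = 0.505 in edgeR). The sum of 6 B cell markers was 27.5 CPM in MCT2 KO replicate 2 and 84.0 to 115 CPM in the other samples, and its part in *Siglecg* was not tested.

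Of 14 genes of tryptophan and arginine breakdown beside *Ido1*, 12 were tested (median 0.23). An unadjusted p under 0.05 was found in 3, against 9.37% of all genes tested. *Kmo*, which acts downstream of IDO1, had 16.9, 18.9 and 18.1 CPM in MCT2 CO and 16.6, 9.30 and 11.3 CPM in MCT2 KO, a log2 fold change of -0.54 (SE 0.20, adjusted p = 0.491 in edgeR). *Nos2*, the inducible nitric oxide synthase, had 1.27, 2.42 and 0.978 CPM in MCT2 CO and 3.86, 6.66 and 17.8 CPM in MCT2 KO. *Arg1*, which uses the same substrate, had 2.44, 1.81 and 2.45 CPM in MCT2 CO and 3.10, 10.5 and 3.13 CPM in MCT2 KO. Each of these 3 genes had groups that did not overlap, and a single sample, MCT2 KO replicate 3 for *Nos2* and MCT2 KO replicate 2 for *Arg1*, lay far above the rest. On the log2 scale the difference was 2.60 for *Nos2* (SE 0.59, adjusted p = 0.370 in edgeR) and 1.34 for *Arg1* (SE 0.485, adjusted p = 0.489 in edgeR).

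Of 26 interferon-gamma response genes, 25 were tested and 20 were above 0, against 50.1% of all genes tested (median 0.13). Against 9.37% of all genes tested, 1 of them had an unadjusted p under 0.05. That gene was *Socs1*, a feedback inhibitor of the pathway, at 7.64, 6.23 and 6.81 CPM in MCT2 CO and 4.49, 2.27 and 4.22 CPM in MCT2 KO (log2 fold change -0.92, SE 0.26, adjusted p = 0.426 in edgeR). *Ifng* itself had 1.07, 3.12 and 2.37 CPM in MCT2 CO and 2.31, 0.491 and 7.67 CPM in MCT2 KO. MCT2 KO replicate 3, the highest sample for *Cd274*, was also the highest for 17 of the 25 interferon-gamma response genes (68.0%) and for 8 of 10 T cell markers, against 12.2% of all genes tested. Its sum of T cell markers was 95.2 CPM. The part of interferon-gamma or of T cells in the level of *Cd274* was not tested.

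**Figure D5:**
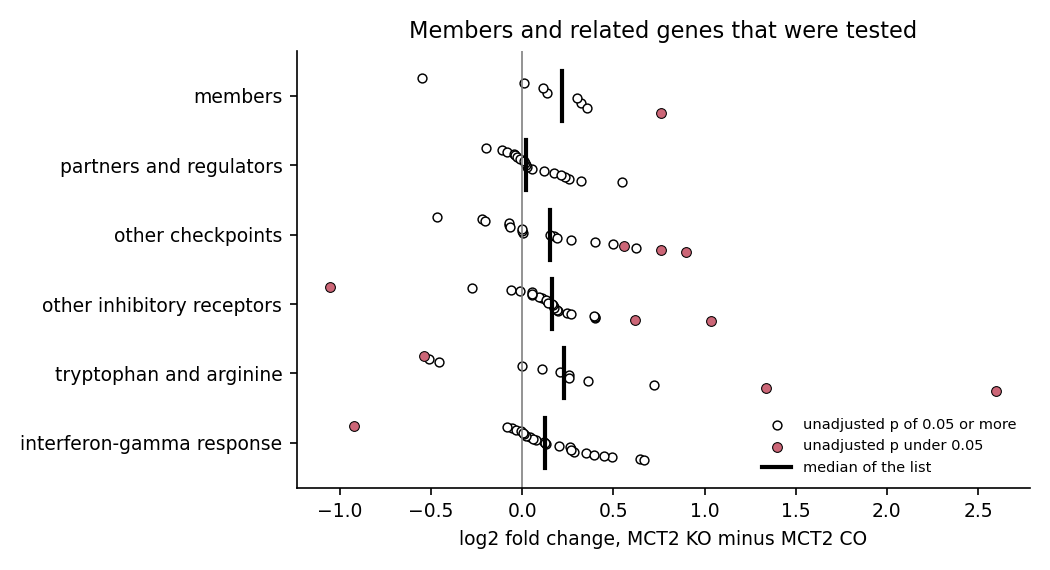
edgeR log2 fold changes, MCT2 KO minus MCT2 CO, of the tested members and of the tested genes in 5 lists of related genes. Each point is a gene, filled where its unadjusted p is under 0.05, and thick lines are list medians. Medians run from 0.02 for partners and regulators to 0.23 for tryptophan and arginine breakdown, with 0.22 for the members.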

How the data were processed

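After checks of read quality, the authors aligned reads to GRCm38 by STAR 2.7.11b and deposited raw counts per gene from featureCounts 2.1.1, without normalization or pooling. The annotation, feature type and strand setting of the counting are not given in the sources used here. Row lengths equal whole gene spans, and all 2714 listed genes inside another listed span had 0 counts. Counting thus appears to have used whole spans, introns included, without regard to strand. Of 25594 identifiers shared with GENCODE M21, 98.1% had the same span length but 2.22% had the same start. The positions given are therefore those of GENCODE M21 by identifier and not those of the counted rows. Which assembly the positions of the rows belong to was not determined. Counts were analysed with edgeR 4.0.16 in R 4.3.3 by filterByExpr (minimum count 10, minimum total 15), TMM and the quasi-likelihood test without covariates, with Benjamini–Hochberg adjustment over all genes kept. CPM values are TMM-normalized, and log2 CPM used a prior count of 2. DESeq2 1.42.0 and limma 3.58.1 (voom) were alternatives, with other scaling and filters, a replicate block and each sample left out. Tests of single values were two-sided exact permutation tests. The scripts were tested on simulated data. Libraries of a group differed by more than sampling noise. The labels do not say whether samples came from separate mice beyond their replicate numbers, so p-values measure the spread between these samples. Named genes were the members, *Slc16a7*, 7 direct partners, the called genes of each list with up to 4 at the smallest unadjusted p under 0.05, and the 2 nearest genes of each member. Other genes named are markers or overlapping genes. The members and lists were chosen with earlier results of these data known.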

Additional observations from a re-analysis of the deposited data

How the results depend on the processing

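With 3 samples a group, no exact test can give a p under 0.1, and 0 members were called under every alternative run. The number of genes called was 0 in edgeR, 79 by DESeq2 on the same genes, 83 by DESeq2 on every gene with 1 count or more, 2 without a filter on low counts and 10 without MCT2 CO replicate 3 and MCT2 KO replicate 2 together. That last setting, like the ratio to macrophage markers, was chosen after seeing the data. With each sample left out in turn it was 0 to 2, and it was 2 without MCT2 KO replicate 2. The members at an unadjusted p under 0.05 numbered 1, and became 3 by DESeq2 on either set of genes, 2 by limma-voom, 2 with total count scaling, 3 without a filter and 2 without both libraries. They ranged from 0 to 4 with each sample left out, at 0 without MCT2 CO replicate 3 or MCT2 KO replicate 3, 2 without MCT2 CO replicate 1 and 4 without MCT2 KO replicate 2. The share of all genes at that p was 9.37%, and 5.80% without MCT2 CO replicate 3, 5.92% without MCT2 KO replicate 3, 10.3% without MCT2 CO replicate 1, 11.6% without MCT2 KO replicate 2 and 6.70 to 9.25% in the other fits named here. With a replicate block there were 2 such members and 0 called. The labels do not say that replicate numbers pair the samples. Deviations of same-numbered samples correlated at 0.22, -0.25 and -0.16, and only MCT2 CO replicate 1 correlated best with its own number. Deviations from means of 3 samples constrain each other, so these values cannot show whether samples were paired. Members whose groups did not overlap numbered 0, 1 with total count scaling and 2 relative to the summed macrophage markers. *Cd47* turned from 0.012 to -0.011 with total count scaling and ranged from -0.040 to 0.10 with a sample left out, and *Havcr2* ranged from -0.093 to 0.36. Of 112 values of the members' fold changes under alternatives, 106 kept their direction and none met both thresholds. *Cd274*, at 0.76, was under 0.58 without MCT2 CO replicate 3 (0.56) or MCT2 KO replicate 3 (0.46), and the row labelled *Lilrb4a* ranged from -0.81 to -0.38 with a sample left out. The causes were not tested. No scaling moved the median log2 fold change of all genes by more than 0.02. The low counts of *Ido1* and the discarded reads of *Vsir* and *Lilrb4a* limit what depth can show.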
